A study of Mus musculus with 8 samples.

Results

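The LIM homeobox genes of the Lhx and Isl series, Lhx1, Lhx2, Lhx3, Lhx4, Lhx5, Lhx6, Lhx8, Lhx9, Isl1 and Isl2, were examined for the repressive histone mark H3K27me3 in mouse neural stem cells (NSCs). Members were the H3K27me3 regions that overlapped a gene body extended by 5 kb on each side (GRCm38, GENCODE gene models). The rule took 11 of the 13585 regions, and each of the 10 genes had at least 1, so that no gene was without a row. The mark was mapped by sequencing of immunoprecipitated chromatin (ChIP-seq), and the cells were primary lines derived from the cortex of female embryos at E14.5, C57BL/6J in background. All lines carried GFP fused to the endogenous Smchd1 gene. WT lines were Smchd1GFP+/+, and MommeD43 lines were homozygous for the MommeD43 missense change on the tagged allele (Smchd1GFPMommeD43/MommeD43). There were 3 ChIP samples from independent lines per genotype, cultured for fewer than 10 passages, and 1 whole cell extract sample per genotype.

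LIM homeodomain proteins are transcription factors in which paired LIM zinc-finger domains, which bind cofactors such as LDB1, precede a DNA-binding homeodomain. Combinations of these proteins specify the identity of motor neurons, interneurons, pituitary cells and forebrain regions. Lhx2 stands apart in this tissue, because it is a selector gene of the cortex and is active in the cortical progenitors from which such cultures are made, whereas the other members mark other brain regions, postmitotic neurons or organs outside the brain. H3K27me3 is placed by Polycomb repressive complex 2, typically over CpG-rich starts of developmental genes that are silent in a cell type. SMCHD1 is a chromatin protein that acts in gene silencing, on the inactive X chromosome and at Hox and imprinted clusters, and the study asked what the MommeD43 variant does to the chromatin state of its targets.

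Values were 1 pooled log2 normalized count per region and genotype, so there was no SD, no n of replicates behind a value and no test. Each difference is MommeD43 minus WT on the log2 scale, with the half-width of a 95% interval that covers the smallest possible counting error and no variation between cell lines. Between genes, levels are compared as normalized counts per kb of region. A lower pooled value may come from fewer cells with the mark or from less mark per cell, and these cannot be told apart. Scaling to library size makes each value relative to the rest of its libraries. The study calls ChIP-seq poorly suited to comparing the level of a histone mark. By immunofluorescence it found less H3K27me3 in MommeD43 NSCs, on the inactive X chromosome and over the whole nucleus.

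All 10 annotated gene starts lay inside a region, against 6499 of 21755 protein-coding gene starts (29.9%) genome-wide. For 9 of the 10 genes the region also covered the whole gene body. The exception was Lhx2, whose region covered the start and 66.2% of the body (20170 of 30453 bp) and ended 10.3 kb before the annotated gene end. In the annotated transcript with the longest coding sequence, 3 of 5 exons lay inside the region and the last 2, with 491 of the 1218 coding bases, lay beyond it. The 11th region sat downstream of Lhx2 and covered none of its body. The 10 regions over the starts spanned 944.0 kb together, and 9 were longer than 90% of all regions.

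**Figure D1:**
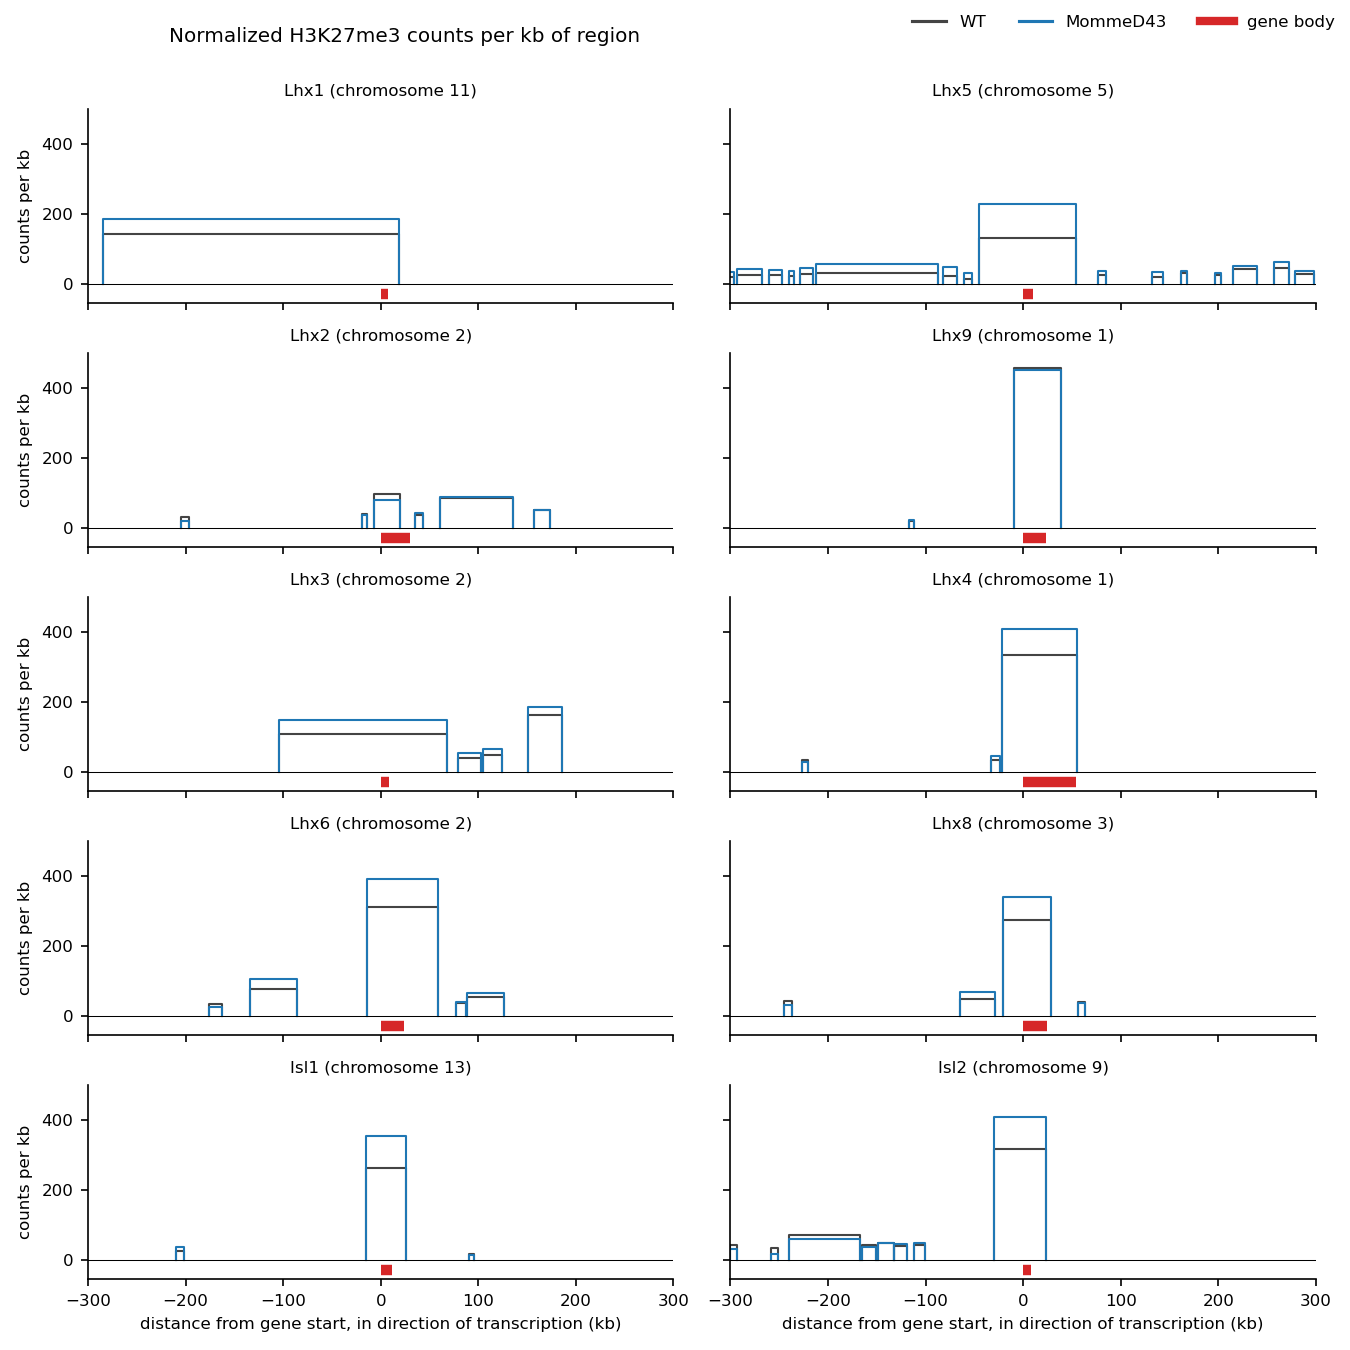
Each panel places the H3K27me3 regions (boxes, height in normalized counts per kb of region, grey for WT and blue for MommeD43) within 300 kb of 1 LIM homeobox gene by their distance in kb from the gene start in the direction of transcription, with the gene body as a red bar. The Lhx2 box is low and ends inside the gene body, whereas the boxes at the other 9 genes extend past both gene ends and reach 109 to 457 normalized counts per kb in WT.

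The promoters below are shown because CpG density per kb of region is the sequence feature in which the Lhx2 region departs from those of the other members, while its mark is the sparsest. The Lhx2 region was also the shortest over a start, so its CpG density takes in less flanking sequence. RefSeq promoter sequences (GRCm38.p6, 250 bases before to 50 bases after a start) matched 9 members with 13 starts, and Lhx5 had no entry. The only RefSeq starts of Lhx9, Lhx4 and Isl2 lay 6.1, 9.7 and 2.5 kb inside the annotated gene, so that for these members the annotated start is not represented, and the second start of Lhx2 is also internal. All 13 promoters lay in an H3K27me3 region. CpG dinucleotides are in capitals and each sequence runs 5′ to 3′ in the direction of transcription.
Lhx2, first start (chr2:38339031-38339330, plus strand): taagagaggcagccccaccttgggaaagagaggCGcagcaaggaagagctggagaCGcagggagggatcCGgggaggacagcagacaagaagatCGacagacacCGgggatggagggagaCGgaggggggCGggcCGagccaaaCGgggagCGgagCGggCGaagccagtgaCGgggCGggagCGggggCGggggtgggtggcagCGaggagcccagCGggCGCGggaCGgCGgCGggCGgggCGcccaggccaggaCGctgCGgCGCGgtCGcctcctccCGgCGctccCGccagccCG
Lhx2, second start (chr2:38351058-38351357, plus strand): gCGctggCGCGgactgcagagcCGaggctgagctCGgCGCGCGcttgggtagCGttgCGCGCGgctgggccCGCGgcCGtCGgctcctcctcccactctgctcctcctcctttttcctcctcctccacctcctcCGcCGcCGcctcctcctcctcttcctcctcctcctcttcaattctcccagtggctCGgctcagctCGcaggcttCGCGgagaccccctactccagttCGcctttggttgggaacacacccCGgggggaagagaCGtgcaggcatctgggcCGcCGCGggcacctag
Isl1 (chr13:116309639-116309938, minus strand): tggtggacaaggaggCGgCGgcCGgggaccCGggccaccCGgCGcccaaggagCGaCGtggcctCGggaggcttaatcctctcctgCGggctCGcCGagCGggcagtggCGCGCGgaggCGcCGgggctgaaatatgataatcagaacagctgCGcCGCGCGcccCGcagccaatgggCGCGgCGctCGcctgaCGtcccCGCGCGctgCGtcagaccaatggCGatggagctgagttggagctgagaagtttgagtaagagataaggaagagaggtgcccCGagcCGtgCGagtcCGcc
Lhx8 (chr3:154330511-154330810, minus strand): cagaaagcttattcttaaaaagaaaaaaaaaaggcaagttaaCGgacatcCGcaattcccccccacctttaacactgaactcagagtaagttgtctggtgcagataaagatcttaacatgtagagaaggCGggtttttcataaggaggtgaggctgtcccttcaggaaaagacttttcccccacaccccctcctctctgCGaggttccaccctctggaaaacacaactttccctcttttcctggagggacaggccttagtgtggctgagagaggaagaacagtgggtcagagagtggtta
The first Lhx2 start holds 34 CpG dinucleotides, more than 92.3% of the 32851 promoters of 300 bases, and the second holds 29, more than 87.1%. Isl1, whose region was among the strongly marked, holds 37 (more than 94.4% of promoters). Lhx8, shown because its region was marked at a like density per kb, holds 4 (more than 31.4%). The 13 member promoters ranged from 4 to 37 with a median of 19, against a median of 7 for all promoters. The palindrome TAATTA, a core of many homeodomain binding sites, was in 0 of the 13 promoters and in 5.29% of all promoters of this length, which says nothing of the binding of any factor.

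In WT cells the family was among the most densely marked loci in the table. The 10 regions over the starts had a median of 269 normalized counts per kb, against 33.7 for all 13585 regions. All 10 were at or above the 95th percentile and 6 at or above the 99th. Lhx9, a factor of gonad formation and of the thalamus, was the densest at 457 normalized counts per kb, and only 4 regions in the table were denser. Lhx4 (332), Isl2 (316), Lhx6 (311), Lhx8 (275) and Isl1 (263) followed, all in normalized counts per kb of WT. Lhx1 (142), Lhx5 (129) and Lhx3 (109) were lower on this scale, and these 3 regions were also the longest, so that a mean per kb over them takes in flanking sequence far from the gene. Neighbouring ranks had no measured spread between lines, so no pair of neighbours in this order is called different.

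Lhx2 was the lowest of the 10, at 95.8 normalized counts per kb in WT. The median of the other 9 genes was 2.87 times and the lowest of them, Lhx3, was 1.13 times the Lhx2 level. In MommeD43 the Lhx2 level was 77.5 normalized counts per kb, with the median of the other 9 at 4.56 times and the lowest at 1.91 times this level. Even so, Lhx2 was at the 95.7th percentile of all regions in WT and at the 90.5th in MommeD43. A gene of cortical progenitors thus had its start inside a marked region in these cultures in both genotypes. The value is a mean over the whole region and does not resolve the level at the start itself. Whether this mark lay in all cells or in some of them was not tested.

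**Figure D2:**
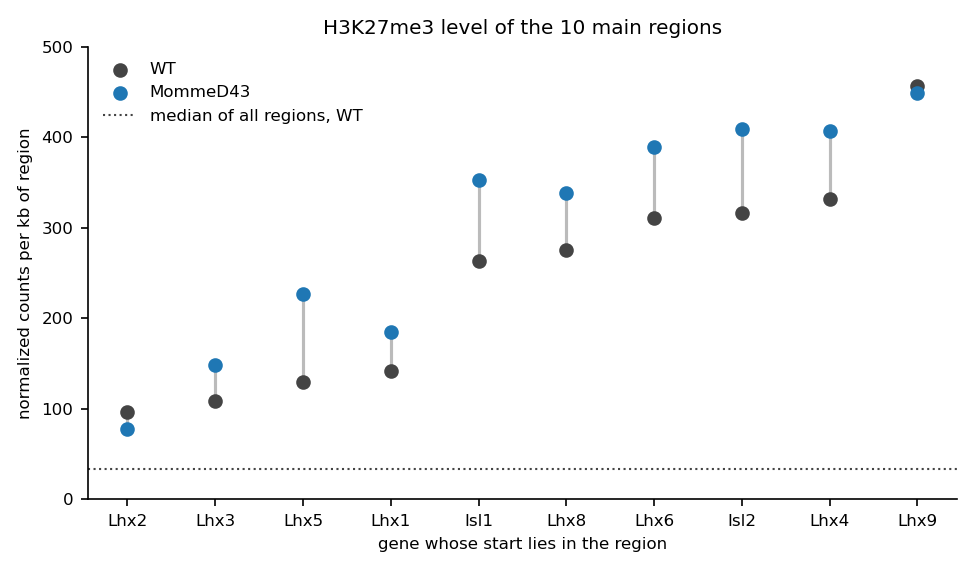
Points give the pooled H3K27me3 level of the 10 regions over the gene starts in normalized counts per kb of region (vertical axis) for WT (grey) and MommeD43 (blue), with genes along the horizontal axis in the order of their WT level and the WT median of all regions dotted. Lhx2 is lowest in both genotypes and Lhx9 highest, and 8 of the 10 genes have the blue point above the grey one.

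In MommeD43 the log2 value was higher than in WT at 9 of the 11 regions and lower at 2. The background for a value above 0 was 60.2% of all regions and 57.7% of the 11707 autosomal regions, and 42.3% of autosomal regions were below 0. The median difference of the 11 regions was 0.32, against 0.11 over all regions and 0.08 over autosomal ones. Lhx2 stood on the other side, with a log2 value of 11.35 in WT and 11.04 in MommeD43. The Lhx2 difference was -0.31 ± 0.082 on the log2 scale, a fold of 0.809, and 1 of 11 regions was thus lower beyond the counting interval (background 25.1% of autosomal regions). Beyond the same interval 8 of 11 were higher (37.9% of autosomal regions). The interval narrows with reads, of which member regions had a median of 5090 per library in WT against 113 for autosomal regions, so these shares are not comparable with those of the members. A difference of at least 0.5 upward was found at 1 of the 11, Lhx5, where the background was 13.4%, and 0 of 11 reached 0.5 downward (11.5%) or 1 in either direction (2.28% of autosomal regions upward and 2.93% downward).

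How far these directions held depended on the scaling. Base composition moved with the difference across the table: among autosomal regions the difference was higher at higher GC content (Spearman rho 0.583 over 11707 regions that share the same libraries, a description with no p). With the running median over GC content subtracted, 10 of 11 regions were above 0 (background 49.8%), with Lhx2 as the exception, and the median was 0.15. Scaling both genotypes to the same summed count lowered each log2 difference by 0.24, which left 8 of 11 above 0 (32.9%) and a median of 0.08, against -0.17 for autosomal regions. With the trend on abundance subtracted, 7 of 11 were above 0 (46.9%) with a median of 0.06. The upward direction at Lhx1, Lhx3, Lhx5, Isl1 and Isl2 and the downward direction at Lhx2 were the same under all of these settings, whereas Lhx4 and Lhx8 turned slightly negative with the abundance trend removed, Lhx6 came to 0.00 under it, Lhx9 turned positive with the GC trend removed and the region downstream of Lhx2 came to -0.02 at equal summed counts. The part of GC content and abundance in the differences was not tested.

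**Figure D3:**
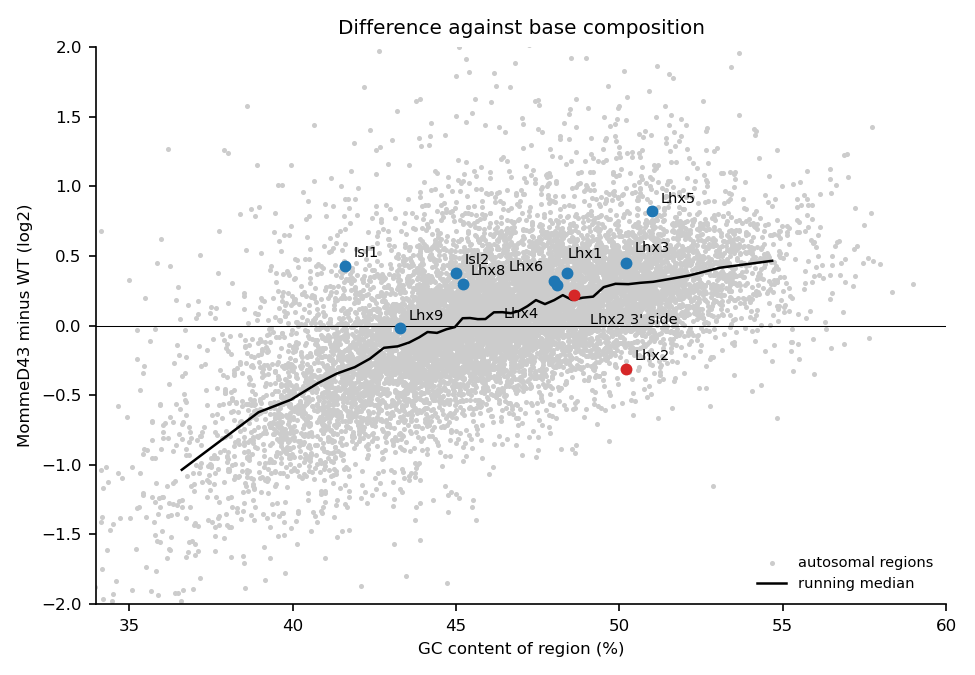
Each grey point is 1 of the autosomal H3K27me3 regions, with GC content in percent on the horizontal axis and the log2 difference MommeD43 minus WT on the vertical axis (69 regions fall outside the plotted range), the black line is the running median, and the coloured points are the 11 LIM homeobox regions with those of Lhx2 in red. The region over the Lhx2 start lies below the line and those over the other 9 starts lie above it.

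Lhx1 and Lhx5 are close relatives that act in the head organizer and in forebrain patterning, Lhx1 also in the kidney and Lhx5 in the hypothalamus and Cajal-Retzius cells. The Lhx1 region (chr11:84506301-84810550, 304.25 kb) covered the gene (minus strand, chr11:84518284-84525535) and overlapped its antisense transcript Lhx1os and the neighbouring gene Aatf. Its log2 value was 15.40 in WT and 15.78 in MommeD43, a difference of 0.38 ± 0.018. The Lhx5 region (chr5:120386151-120485350, 99.20 kb; gene on the plus strand at chr5:120431699-120441223) had log2 values of 13.64 and 14.46, a difference of 0.82 ± 0.032 or 1.76-fold. This was the largest difference of the family, and 96.1% of autosomal regions had a lower one. The region also overlapped Plbd2, Sds and Sdsl. Lhx5 went from 0.909 times the Lhx1 level per kb in WT to 1.23 times in MommeD43, with no measured spread between lines behind either ratio. The Lhx5 difference exceeded that of Lhx1 by 0.43 ± 0.04 on the log2 scale, and by 0.33 with the GC trend removed.

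Regions around Lhx5 differed in the same direction. Within 250 kb of the Lhx5 start there were 11 other regions, and all 11 had higher log2 values in MommeD43 (57.7% of autosomal regions were above 0), with differences of 0.26 to 1.21 and a median of 0.67. The highest was a region upstream of the gene at chr5:120370701-120378850 (1.21). These neighbours were sparser than the Lhx5 region itself. With the GC trend removed their differences ranged from -0.16 to 0.91, and the neighbours below 0 on that scale were those over Rasal1, Cfap73 and Ddx54. Around Lhx3 all 3 other regions within 250 kb were higher too, and the 1 around Lhx9. Neighbours went both ways around Lhx6 (3 of 4 higher), Isl2 (2 of 5), Lhx8 (1 of 3), Lhx4 (1 of 2) and Isl1 (1 of 2), and around Lhx1 there was no other region.

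Lhx2 and Lhx9 form the second pair, the first needed for the cortex, the eye and hair follicle stem cells and the second for the gonad. The Lhx2 region lay at chr2:38332251-38359450 (27.20 kb), began 7.0 kb before the annotated start of the gene (plus strand, chr2:38339281-38369733) and held no other coding gene, only the antisense transcript Gm27197. Each pooled value rested on about 797 reads per library in WT and 801 in MommeD43, and the counting interval of the difference ran from -0.39 to -0.22. Of the 10 regions over starts this was the shortest and the 1 with fewest reads, so its interval is the widest. The downstream Lhx2 region (chr2:38374251-38382550, 8.30 kb) went the other way, with log2 values of 8.17 and 8.39 and a difference of 0.22 ± 0.226, which did not exceed counting error. The Lhx9 region (chr1:138809451-138858250, 48.80 kb; gene on the minus strand at chr1:138825186-138848577) had log2 values of 14.44 in WT and 14.42 in MommeD43. The Lhx9 difference was -0.02 ± 0.027, within counting error, but it was -0.27 at equal summed counts and -0.34 with the abundance trend removed. Per kb, Lhx9 was 4.77 times Lhx2 in WT and 5.79 times in MommeD43.

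Set beside the other 9, the Lhx2 difference was 0.68 below their median and 0.28 below the lowest of them, Lhx9, on the log2 scale. With the GC trend removed it was -0.60, against 0.09 to 0.75 for the other 9, and 3.97% of autosomal regions had a lower value on that scale. The share was 19.1% as measured and 14.3% with the abundance trend removed. The Lhx2 region had a GC content of 50.2%, close to that of Lhx3 (50.2%) and Lhx5 (51%), which were both higher in MommeD43. Its CpG density of 25.2 per kb, taken over the shortest region at a member's start, exceeded that of 96.7% of all regions and of each other member (11.9 to 17.8 per kb). Of the 436 autosomal regions with at least that CpG density, 112 were lower in MommeD43 and 38 were at least as low as Lhx2, with a median difference of 0.28. Lhx2 was thus apart from both its relatives and the typical region of its base composition, but not the only CpG-dense region with a value this low. Because each genotype had 1 pooled value, the difference between Lhx2 and the other members could not be tested against the spread of cell lines.

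Of 4 other regions within 250 kb of the Lhx2 start, 1 was higher and 3 were lower in MommeD43, and their median log2 difference was -0.08. A region at Dennd1a (chr2:38134251-38143000) had the largest of these differences, -0.65 ± 0.27, beyond counting error and in the direction of Lhx2, but 0.38 with the GC trend removed. The nearest of them upstream (chr2:38319801-38325700) had a difference of -0.12 ± 0.27, within counting error. A stretch with no coding gene, of 74150 bp that begins 60.9 kb beyond the start (chr2:38400201-38474350), was marked at 83.3 normalized counts per kb in WT and 86.6 in MommeD43, a log2 difference of 0.06. Lhx2 itself, at 95.8 and 77.5, thus was above this stretch in WT and below it in MommeD43.

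Lhx3 and Lhx4 direct pituitary and motor neuron development. The Lhx3 region (chr2:26140551-26312050, 171.50 kb; gene on the minus strand at chr2:26200212-26208289) also took in Ccdc187 and Qsox2, and its log2 value was 14.18 in WT and 14.63 in MommeD43. Its difference was 0.45 ± 0.027, and it came to 0.15 with the GC trend removed. The Lhx4 region (chr1:155697051-155773750, 76.70 kb) began within 1.0 kb of the gene end and reached 22.1 kb upstream of the start (minus strand, chr1:155698031-155751684), with no other coding gene inside. Lhx4 had log2 values of 14.64 and 14.93, a difference of 0.29 ± 0.024. Lhx4 thus was 3.06 times as densely marked as Lhx3 in WT and 2.75 times in MommeD43. The Lhx4 difference was 0.16 smaller than that of Lhx3 on the log2 scale, beyond counting error, but the gap shrank to 0.06 with the GC trend removed.

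Lhx6 and Lhx8 act in the ventral forebrain, Lhx6 in cortical interneurons born in the medial ganglionic eminence and Lhx8 in cholinergic neurons of the basal forebrain. Lhx6 (chr2:36046251-36119650, 73.40 kb; gene on the minus strand at chr2:36081953-36105408) had log2 values of 14.48 in WT and 14.80 in MommeD43, a difference of 0.32 ± 0.025. Its region extended 35.7 kb beyond the gene end over Morn5, Ndufa8 and Rbm18. Lhx8 (chr3:154302201-154351150, 48.95 kb; gene on the minus strand at chr3:154306294-154330659) had log2 values of 13.72 and 14.01, a difference of 0.30 ± 0.033, with no other coding gene in the region. The differences of the pair were 0.02 apart, within a counting interval of ± 0.04. With the GC trend removed they were 0.10 apart, with Lhx8 (0.25) above Lhx6 (0.14). Lhx8 had 0.882 times the WT level of Lhx6 per kb.

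Isl1 marks motor neurons, heart progenitors and pancreatic endocrine cells, and Isl2 is a factor of motor neuron and retinal ganglion cell subtypes. The Isl1 region (chr13:116283951-116325250, 41.30 kb; gene on the minus strand at chr13:116298281-116309689) held no other coding gene and had log2 values of 13.41 in WT and 13.83 in MommeD43. Its difference was 0.43 ± 0.036. The Isl2 region (chr9:55509201-55561900, 52.70 kb; gene on the plus strand at chr9:55538672-55546180) also overlapped Etfa and Scaper. Isl2 had log2 values of 14.02 and 14.40, a difference of 0.38 ± 0.029, so that the pair were 0.05 apart as measured, as large as the counting interval of ± 0.05. Isl1 had the lowest GC content of the family (41.6%), its difference was 0.75 with the GC trend removed, and that of Isl2 (45% GC) was 0.39.

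**Figure D4:**
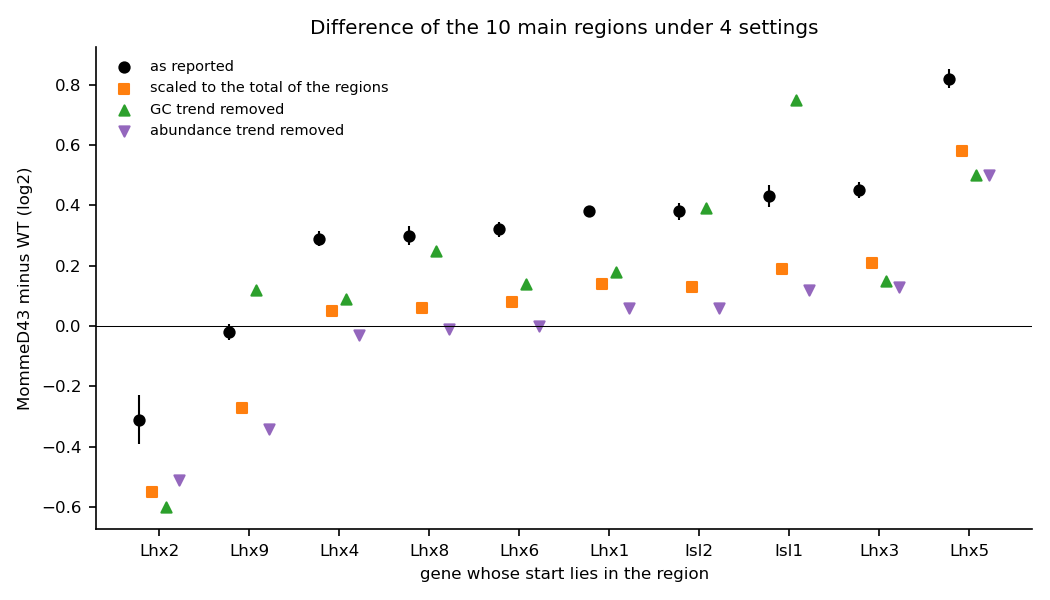
The log2 difference MommeD43 minus WT (vertical axis) of the 10 regions over the gene starts is shown as reported (black, bars are the 95% counting interval), scaled to the total of the regions (orange), with the GC trend removed (green) and with the abundance trend removed (purple), with genes ordered by the reported difference. Lhx2 is below 0 and Lhx5 at or above 0.50 under all 4 settings, whereas the values of Lhx9, Lhx4, Lhx8 and Lhx6 reach or cross 0 under at least 1.

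The remaining LIM homeobox genes, Lmx1a and Lmx1b, which act in midbrain dopamine neurons and dorsal patterning, had 7 regions, 6 of them at the single locus of Lmx1a. All 7 had higher log2 values in MommeD43 with a median difference of 0.62, where 57.7% of autosomal regions were above 0. The region over the Lmx1b start had log2 values of 15.98 in WT and 16.51 in MommeD43 (235 and 339 normalized counts per kb), and that over the Lmx1a start had 13.03 and 13.71 (107 and 172 normalized counts per kb). Both lay within the range of the Lhx and Isl genes in level and above most of them in difference. LIM-only proteins and their cofactors, which compete for or bridge LIM domains, had regions at 5 of 9 genes, and 2 of the 9 had their start in one. Their 5 regions had a median difference of 0.24, with 3 higher and 2 lower, a share like the 60.2% of all regions above 0. After subtraction of the GC trend 2 of 5 were above 0, with a median of -0.06. Lmo1 had the largest log2 difference of these (1.08, from 30.6 to 64.8 normalized counts per kb) and Ldb2 the lowest (-0.64). With the GC trend removed Lmo1 was at 0.93 and Ldb2 at -0.06, and the lowest was Lmo2 at -0.21. No region met Lmo3, Lmo4, Ssbp2 or Ssbp3.

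The labelled cell type was set against genes known for neural stem cells. Of the 13 genes listed, 6 had their start in a region, where the share over protein-coding genes was 29.9%. The marked genes included Nes, Sox1, Hes1 and Hes5, and no region met 6 of the 13, among them Sox2, Nr2e1, Vim, Sox9 and Fabp7. The 7 genes with a region had 1 region each, with 24.1 to 184 normalized counts per kb in WT and a median of 53.8, and the densest was Emx1, above Lhx2 (95.8). Pax6, another cortical progenitor factor, had 33.4 normalized counts per kb in WT and 75.6 in MommeD43, a log2 difference of 1.18 (0.84 with the GC trend removed), opposite in sign to Lhx2. Emx1 and Emx2, cortical selector genes like Lhx2, had log2 differences of 0.16 and 0.60 as reported, and of -0.05 and 0.38 with the GC trend removed, so that the sign at Emx1 depended on the setting. Of the 7 regions of the list, 7 were above 0 as reported (57.7% of autosomal regions) and 5 with the GC trend removed (49.8%). These samples hold the histone mark alone, and expression was not analysed here.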

How the data were processed

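H3K27me3 ChIP-seq was performed in 3 WT and 3 MommeD43 NSC lines, with 1 whole cell extract sample per genotype. The labels describe micrococcal nuclease digestion of the chromatin, which cuts with a base preference, whereas the study's methods describe shearing by sonication. Per the submitters' processing notes, reads were trimmed with Trim Galore 0.4.4 and mapped with Bowtie2 2.3.4.1. The authors called H3K27me3 regions in SeqMonk, merged nearby ones and deposited 1 table of log2 normalized counts with 1 column per genotype, in which the 3 libraries were pooled. Per the study's methods, whole cell extract entered the peak calling, and no subtraction of it from the counts is described. No per-sample column was left unmapped (0 such columns).

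Region length was taken from the start and end columns. The names of 8582 regions end at an earlier base, and the mean value correlated with log2 length at r = 0.927 by the columns and r = 0.468 by the names. Values at the lowest regions fell on whole steps, which gave 1 read as 3.27 normalized counts in WT and 2.63 in MommeD43. At low regions 1138 of 1139 values (99.9%) in WT and 681 of 684 (99.6%) in MommeD43 were whole within 0.1. This step assumed that each value is the mean of the log2 counts of 3 libraries, and it set the counting intervals, which hold for counting error only. The steps were tested on simulated data.

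Members were found with GENCODE mouse release 21 gene bodies (GRCm38) extended by 5 kb, with Python 3.11.15, numpy 2.4.6, pandas 2.3.3 and matplotlib 3.10.9. GC and abundance trends were running medians over 40 bins, of autosomal regions for GC content and of all regions for abundance. No test was possible with 1 pooled column per genotype. All members were named. Members and gene lists were chosen with earlier results of these data known, and some listed genes are not reported here by name. Alternatives were other scalings, a pseudocount of 10, a minimum of 50 reads, other membership rules and, chosen after seeing the data, removal of the CpG density trend.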

Additional observations from a re-analysis of the deposited data

How the results depend on the processing

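The median log2 difference of the 11 regions, 0.32 as reported, was 0.25 relative to the autosomal median, 0.08 at equal summed counts, 0.06 after subtraction of the abundance trend and 0.15 with the GC trend or, as an alternative chosen after seeing the data, the CpG density trend removed. It stayed above 0 under each. The Lhx2 difference minus the median of the other 9 genes, -0.68 as reported, was -0.78 after subtraction of the GC trend and -0.56 after that of the abundance trend. With the abundance trend removed Lhx4 (-0.03) and Lhx8 (-0.01) turned below 0, and the cause was not tested. Of 55 values of single regions under other scalings and trend removals, 6 stayed within the counting interval of the reported value (4 of them at the downstream Lhx2 region), 47 moved further and 2, those of Lhx4 and Lhx8, turned from a reported difference beyond counting error. Among the 47, Lhx9 (0.12 with the GC trend removed) and the downstream Lhx2 region (-0.02 at equal summed counts) changed sign from reported values within counting error. Regions that overlapped gene bodies alone gave a median of 0.35, and members within 50 kb gave 0.31 over 16 regions. No paired analysis was possible because the deposited columns pool the 3 libraries of each genotype, and leaving out single replicates could not be run for the same reason. Differences between cell lines are therefore unknown at every gene, and the counting interval is a lower limit of the error. At the downstream Lhx2 region, with about 88 reads per library in WT and 127 in MommeD43, depth limits what could be detected.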

Other observations

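Genes that act with LIM homeodomain factors were marked at a median of 226 normalized counts per kb in WT, against 269 for the regions over the Lhx and Isl starts. Of 13 partner genes of motor neuron, pituitary, interneuron and sensory programmes, 10 had a region and 9 had their start in one. All 10 regions had higher log2 values in MommeD43, with a median difference of 0.23, against 0.32 for the 11 Lhx and Isl regions, where the background for a value above 0 was 60.2% of all regions. The highest difference of these 10 was at Pitx1, a hindlimb and pituitary factor (0.71),. The interneuron gene Nkx2-1, which acts upstream of Lhx6, had a difference of 0.09. Neurog2 and Mnx1, which act with Isl1 and Lhx3 in motor neurons, had differences of 0.44 and 0.22. The genes with no region included Olig2 and Pou1f1.

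The 13 regions of 3 neuron genes, 9 of them at Rbfox3, had a median of 35.2 normalized counts per kb in WT, and the region over the Rbfox3 start had 129, the level of Lhx5. The 4 regions of 3 astrocyte and oligodendrocyte genes had a median of 48.9. The median log2 differences of the neuron and the glial regions were 0.62 and 0.40, against 0.11 over all regions. With the GC trend removed they were 0.33 and 0.07, against 0.05. The neuron regions include those of Dcx on the X chromosome, whereas the GC trend was fitted on autosomal regions. The Dcx differences were 1.03, 0.15 and 1.09, and 1.61, 0.81 and 1.63 with the GC trend removed. Snap25, Aqp4 and Olig1 had no region.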
